A study of Mus musculus with 12 samples.

Results

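Cdx2, Nanog, Pou5f1, Gata1, Gata4, Gata6, Foxa2, Sox17, Myod1 and Dppa4 are 10 master regulators of lineages other than the nervous system, and their promoters were read here in H3K4me3 peak lists of the embryonic mouse forebrain. They were chosen by name, 10 of 21951 protein-coding genes, and not by a measured value, although earlier results of these data were known. A gene was counted as marked in a list when a peak overlapped, by at least 1 bp, the 5 kb on either side of any of its annotated transcription start sites (TSSs). H3K4me3 was profiled by CUT&Tag, in which an antibody tethers a transposase that tags the DNA around the modified nucleosomes, in wild-type C57BL/6J embryos of both sexes at embryonic day (E) 12.5. The dissected regions were the medial, lateral and caudal ganglionic eminences (MGE, LGE and CGE), the ventral sources of inhibitory neurons and striatal projection neurons, and the cortex (CTX), the dorsal source of excitatory neurons. The 12 libraries represent 2 biological replicates per region, each from pooled embryos, and the authors merged the replicates of a region before calling broad peaks. Each region therefore had 1 list and every value below stands without a replicate error, so differences between regions are described and not tested. The protocol in the labels states that nuclei of the 4 regions were pooled in equal numbers before the reaction and does not state how the identity of a region was then kept, and it names E14.5 embryos beside E12.5.

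H3K4me3 is deposited around the start sites of active genes by SET1 and MLL complexes, which reach CpG islands in part through CXXC-domain proteins that bind unmethylated CpG. In stem cells and progenitors many silent developmental regulators with CpG islands also carry low H3K4me3 together with the Polycomb mark H3K27me3, a state called bivalent or poised, whereas silent genes with CpG-poor promoters are usually DNA-methylated and lack H3K4me3. H3K27me3, DNA methylation and RNA were not analysed here, so a peak or its absence is reported without a statement on activity. The peaks also come from whole dissected tissue, in which fewer cells with a mark and less of the mark per cell cannot be told apart.

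H3K4me3 peaks were found at 6 of the 10 regulators in at least 1 list, and 4 had none. Sox17 and Gata6 were marked in all 4 lists, Cdx2 in LGE and CTX, Gata4 in LGE and CGE, Nanog in MGE and CTX, and Myod1 in CGE alone. Pou5f1, Dppa4, Foxa2 and Gata1 had no peak within 5 kb in any list. The members thus had a peak in 3 of 10 cases in MGE, where 65.0% of all protein-coding genes had one, and in 4 of 10 in LGE, where the share of all genes was 64.2%. The counts were 4 of 10 in CGE and 4 of 10 in CTX, beside shares of 64.6% and 63.8% of all genes. Of all protein-coding genes 61.3% were marked in all 4 lists, 6.55% in 1 to 3 lists and 32.1% in none, whereas 2 of the 10 regulators were marked in all 4 lists, 4 in 1 to 3 lists and 4 in none. The mark at these genes was thus less frequent and more often different between lists than the genome-wide shares, and with 10 hand-picked genes this is a description.

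**Figure D1:**
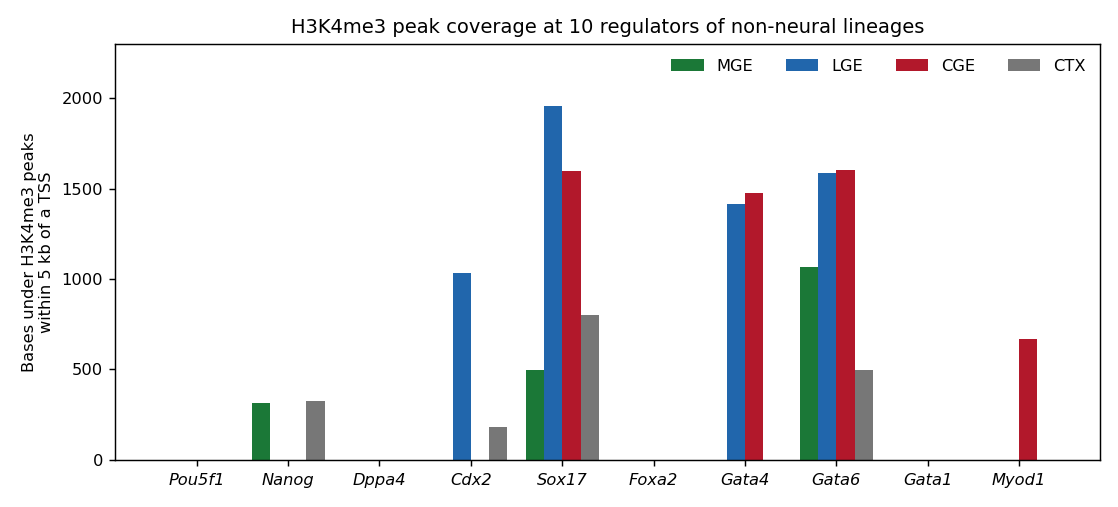
Bases under H3K4me3 peaks within 5 kb of a TSS (vertical axis, bases) for each of the 10 regulators, with 1 bar per region list and no bar where no peak was found. The highest bars are those of Sox17 (1959 bases, LGE) and Gata6 (1605 bases, CGE), and 4 genes have no bar.

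The plot of covered bases shows the length of DNA under peaks in the window of each gene. Summed over the 10 genes it came to 5990 bases in LGE and 5350 in CGE, against 1883 in MGE and 1809 in CTX. The median over the 10 genes was 0 in every list, whereas over all protein-coding genes it was 1126 in CGE, 1036 in LGE, 733 in CTX and 717 in MGE. The lists themselves differed in the same direction. Peaks within 5 kb of protein-coding TSSs, called promoter peaks here, had median widths of 1341 bp for CGE, 1260 bp for LGE, 894 bp for CTX and 833 bp for MGE. Their median −log10 q, the authors' measure of significance over the background of the peak caller, was 112, 53.7, 16.2 and 12.6 in the same order. The numbers of peaks were 17752, 17284, 21442 and 25339. The part of these list-wide differences in the differences between regions at the regulators was not tested.

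As a check of the labelled tissue, forebrain genes (among them Sox2, Nes, Dlx2, Emx1 and Nkx2-1) were marked in 6 of 6 cases in MGE, LGE and CGE and in 5 of 6 in CTX. Nkx2-1, the MGE regulator, was the gene without a peak in CTX, and was singled out after its values were seen. It was also marked in LGE and CGE, with 2934 and 3804 covered bases against 3262 in MGE. Emx1, a cortical gene named after its values were seen, had 3337 covered bases in LGE and 3453 in CGE against 2969 in CTX and 495 in MGE, and Dlx2, a gene of the eminences, was marked in CTX too, with 1128 bases. A peak at these genes was thus not limited to the region each is known for. Their highest −log10 q, however, was above the list median of promoter peaks only in those regions. For Nkx2-1 this was MGE alone, with 3.52 in LGE and 30.9 in CGE beside medians of 53.7 and 112. For Emx1 it was CTX alone, with 20.9 beside a median of 16.2, against 24.1 in LGE, 22.2 in CGE and 1.72 in MGE. Dlx2 was above the median in the eminences and had 7.51 in CTX. The highest fold enrichment, a ratio to the caller's background, did not set these regions apart in this way. It was 3.50 (MGE), 3.29 (LGE), 3.10 (CGE) and 3.40 (CTX) for Emx1, and 4.35, 3.60, 4.00 and 4.84 for Dlx2. For Nkx2-1 it was 3.05 (MGE), 2.89 (LGE) and 2.91 (CGE). All these folds were below the list medians of promoter peaks, which ran from 5.58 to 6.26.

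The broadest peaks were at the endoderm regulators Gata6, Sox17 and Gata4, whereas Foxa2 had none. Gata6, a zinc-finger factor of primitive endoderm and heart (Gata6-203 5′ end on chromosome 18, plus strand), had 1 peak in each list. It covered 1605 bp for CGE, 1584 bp for LGE, 1068 bp for MGE and 498 bp for CTX. All of them began downstream of the gene 5′ end, by 112, 128, 92 and 288 bp, and reached the starts of Gata6-201 and Gata6-202, which lie 406 and 444 bp downstream. The interval under a peak in every list was 498 bp long, which is the whole CTX peak, so the 4 lists marked the same place and differed in how far the peak extended. Fold enrichment over the background estimated by the caller was 3.36 (CGE), 3.29 (LGE), 4.62 (MGE) and 3.47 (CTX), and −log10 q was 7.41, 4.03, 3.83 and 1.80. The CGE value of 7.41 was the highest among the peaks at the 10 genes. Among the genes marked in the same list, 61.0% (LGE), 56.9% (CGE), 51.6% (MGE) and 9.24% (CTX) were less covered than Gata6. Gata6 thus sat near the middle of marked genes by width in the 3 eminences and among the narrowest in CTX. A start of another annotated gene, 1010001N08Rik, lies under the same peaks, and the lists do not tell the promoters apart.

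Gata4, the paralogue of Gata6 in endoderm and heart, was marked in LGE and CGE and not in MGE or CTX. The peaks covered 1413 bp in LGE (chr14:63244632-63246044) and 1478 bp in CGE (chr14:63244614-63246091), with folds of 3.09 and 2.47 and −log10 q of 1.94 and 1.64. The whole LGE peak was contained in that of CGE. They did not lie at the annotated 5′ end of the gene but began 25648 bp (LGE) and 25601 bp (CGE) downstream of it. They covered the starts of Gata4-201 and Gata4-202 at 26421 and 26444 bp. In each of these peaks 121 bases were exonic and the rest intronic to longer transcripts. The nearest peaks in MGE and CTX were 19480 and 19452 bp from a Gata4 start. Although among the wider peaks of their lists, with 61.3% and 60.0% of promoter peaks narrower, these were among the weakest, with 1.83% and 0.726% of promoter peaks at a lower −log10 q.

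Sox17, an HMG-box factor of endoderm and arterial endothelium, was marked in every list, but not at a single interval. The LGE list held 2 peaks. The upstream peak, 744 bp at chr1:4496632-4497375, spanned the gene 5′ end and had a fold of 2.94 and a −log10 q of 2.03. The downstream peak, 1215 bp at chr1:4492282-4493496, began 3858 bp into the gene and had a fold of 3.17 and a −log10 q of 2.56. CGE had 1598 bp at chr1:4491967-4493564 (fold 3.02, −log10 q 3.91), and CTX had 801 bp at chr1:4492583-4493383 (fold 3.61, −log10 q 1.95). The LGE downstream, CGE and CTX peaks overlapped each other, and lay 108, 40 and 221 bp from the start of the shorter transcript Sox17-205. In MGE a 498-bp peak at chr1:4491745-4492242 lay farther downstream, 1362 bp from that start and wholly in coding sequence. It overlapped the CGE peak, ended 39 bases short of the LGE peak and did not reach the CTX peak, so no base of Sox17 was under a peak in all 4 lists, as the map of peak positions shows. Its fold was 3.11 and its −log10 q 1.05, and 0.126% of promoter peaks of the MGE list had a lower −log10 q. Among marked genes of the same list 76.8% (LGE), 56.5% (CGE), 26.6% (CTX) and 10.5% (MGE) were less covered than Sox17.

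Foxa2, a forkhead factor of endoderm that also specifies the floor plate of the neural tube, had no peak within 5 kb. The nearest peaks were 5754 bp away in CGE, 48755 bp in MGE, 64983 bp in CTX and 167914 bp in LGE. The CGE peak had a width of 1072 bp and a −log10 q of 1.31, and lay 369 bp from a start of 9030622O22Rik, a neighbour named after its values were seen. It and a 489-bp MGE peak at 5638 bp from Pou5f1 (−log10 q of 1.27) were the peaks just outside the 5 kb window, and the Nanog peaks at 4640 and 4593 bp were those just inside.

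**Figure D2:**
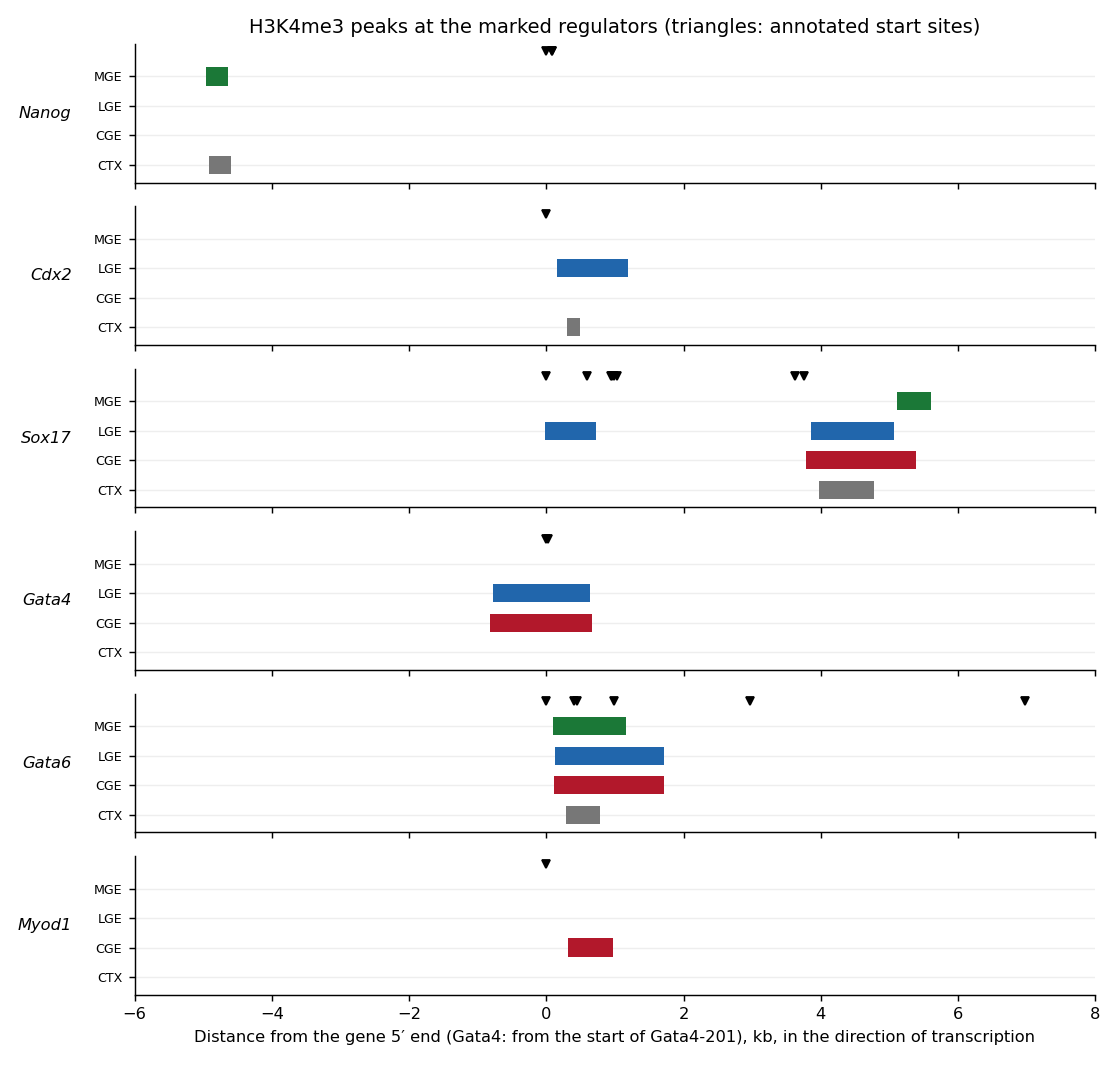
Positions of the H3K4me3 peaks at the 6 marked regulators along the direction of transcription (horizontal axis, kb from the gene 5′ end, or from the start of Gata4-201 for Gata4). Bars are peaks, drawn in 1 row per region list, and triangles are annotated start sites. Gata6 peaks share 498 bp in all 4 lists, whereas at Sox17 the MGE peak lies downstream of the LGE and CTX peaks.

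Cdx2 and Myod1, where marked, had peaks just inside the gene. Cdx2, a homeobox factor of trophectoderm and intestine with a single annotated start at position 147307270 of chromosome 5 (minus strand), was marked in LGE and CTX. The LGE peak was 1034 bp wide (chr5:147306075-147307108), began 162 bp downstream of the start, and had a fold of 3.31 and a −log10 q of 2.50. The CTX peak lay wholly within it, was 182 bp wide (chr5:147306786-147306967), began 303 bp downstream and had a fold of 3.75 and a −log10 q of 2.19. It was the narrowest of the 16 peaks at these genes, and all its bases were coding. Of marked genes 22.0% in LGE and 1.91% in CTX were less covered. The nearest peaks in MGE and CGE were 7701 and 7915 bp from the start.

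Myod1, a basic helix-loop-helix factor that drives skeletal muscle differentiation, has a single annotated start at position 46376474 of chromosome 7 (plus strand) and was marked in CGE alone. The peak was 669 bp wide (chr7:46376782-46377450), began 308 bp downstream of the start and held 518 coding bases, with a fold of 3.16 and a −log10 q of 3.59. Only 4.26% of the genes marked in CGE were less covered. In the other lists the nearest peaks were 19835 bp (MGE), 20225 bp (LGE) and 19965 bp (CTX) away, at Kcnc1, a potassium channel gene named after its values were seen.

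Sequence at or beside the peaks of Cdx2, Myod1, Sox17 and Gata4 is shown here for 4 intervals from the GRCm38 genome of RefSeq. Each is printed 5′ to 3′ on the strand of the gene with every CpG in capitals. The first is the whole CTX peak of Cdx2, with 17 CpGs in 182 bases, and the next is the first 200 bases of the Myod1 peak in CGE (chr7:46376782-46376981), with 16 CpGs. The others are the 200 bases upstream of the Sox17 5′ end (chr1:4497355-4497554, minus strand), with 17 CpGs, and of Gata4-201 (chr14:63245272-63245471, minus strand), with 22. The LGE peak of Sox17 covered the last 21 of its 200 bases, and the LGE and CGE peaks of Gata4 covered all of theirs. These whole peaks were less dense in CpGs than the stretches shown. They held 36 CpGs in 744 bp at Sox17, and 80 in 1413 bp (LGE) and 82 in 1478 bp (CGE) at Gata4.
Cdx2 peak: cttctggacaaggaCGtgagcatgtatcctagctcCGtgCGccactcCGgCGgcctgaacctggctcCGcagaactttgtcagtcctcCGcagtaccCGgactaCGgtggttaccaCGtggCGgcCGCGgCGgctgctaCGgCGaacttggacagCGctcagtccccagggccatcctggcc
Myod1 peak: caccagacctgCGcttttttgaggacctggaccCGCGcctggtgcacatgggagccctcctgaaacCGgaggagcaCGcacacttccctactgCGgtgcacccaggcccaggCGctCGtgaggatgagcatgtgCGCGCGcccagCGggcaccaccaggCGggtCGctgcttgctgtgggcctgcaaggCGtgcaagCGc
Sox17 upstream: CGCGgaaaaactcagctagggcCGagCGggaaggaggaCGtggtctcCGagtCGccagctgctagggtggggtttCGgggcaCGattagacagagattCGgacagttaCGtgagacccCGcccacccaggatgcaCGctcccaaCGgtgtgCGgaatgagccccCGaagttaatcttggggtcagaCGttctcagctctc
Gata4-201 upstream: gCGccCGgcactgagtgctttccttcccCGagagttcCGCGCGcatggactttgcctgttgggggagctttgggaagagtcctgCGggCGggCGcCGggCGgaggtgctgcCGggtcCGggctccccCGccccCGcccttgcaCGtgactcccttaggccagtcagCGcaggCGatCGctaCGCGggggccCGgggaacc

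Pou5f1 and Dppa4 were unmarked, and Nanog was marked away from its start. Pou5f1 (Oct4), the POU factor required for the inner cell mass (5′ end at position 35506018 of chromosome 17, plus strand), had no peak within 5 kb of any of its 6 annotated starts. The nearest peaks lay 5638 bp away in MGE and 6714, 6687 and 7187 bp away in LGE, CGE and CTX. Those 3 spanned starts of Tcf19 and Cchcr1, neighbours named after their values were seen, and had −log10 q of 37.9, 76.4 and 38.4. Dppa4, a chromatin protein of pluripotent cells (chromosome 16, plus strand), was the most isolated of the 10, with the nearest peak 484305 bp away in MGE and 709731 to 709750 bp away in the other lists.

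Nanog, the homeobox factor of naive pluripotency (5′ end at position 122707489 of chromosome 6, plus strand), was counted as marked in MGE and CTX through peaks far upstream of its start. The MGE peak was 317 bp wide (chr6:122702533-122702849, fold 3.84, −log10 q 2.19), and the CTX peak 328 bp (chr6:122702569-122702896, fold 4.18, −log10 q 2.98). They shared 281 bases, lay outside the gene, and were 4640 and 4593 bp from the nearest Nanog start. A start of another annotated gene, Gm10224, was nearer, at 3505 and 3541 bp. The 5′ end of Nanog itself had no peak in any list, and the nearest peaks in LGE and CGE were 34004 and 34032 bp away. Of marked genes 5.66% in MGE and 5.16% in CTX were less covered.

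Gata1, the zinc-finger factor of the erythroid and megakaryocyte lineages (5′ end at position 7978071 of chromosome X, minus strand), had no peak within 5 kb of its 3 annotated starts. The nearest peak was 15880 to 15952 bp away in every list and spanned the start of Hdac6, a deacetylase gene named after its values were seen. With −log10 q of 14.3 to 132 that neighbour was detected in each list. Whether a peak could be detected at the Gata1 starts themselves was not tested.

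Unmarked starts are shown in the same way, as the 200 bases upstream of the 5′ ends of Nanog (chr6:122707289-122707488) and Pou5f1 (chr17:35505818-35506017) and of Gata1-201 (chrX:7967911-7968110, minus strand). They hold 1, 6 and 2 CpGs, whereas the same length upstream of marked genes holds 9 at Myod1, 10 at Cdx2, 17 at Sox17 and 22 at Gata4-201. Foxa2 (chr2:148046970-148047169, minus strand) holds 6 and was unmarked as well. This contrast depends on the starts shown. The stretches upstream of Myod1 and Cdx2 lay under no peak, and Gata1-201 and Gata4-201 are internal starts. In 300 bases around the start, Gata1-201 holds 4 CpGs and the Gata1 5′ end 8. Gata4-201 holds 33 and the unmarked Gata4 5′ end 8. The unmarked starts of Foxa2-204 and Foxa2-202 hold 18 and 23.
Nanog upstream: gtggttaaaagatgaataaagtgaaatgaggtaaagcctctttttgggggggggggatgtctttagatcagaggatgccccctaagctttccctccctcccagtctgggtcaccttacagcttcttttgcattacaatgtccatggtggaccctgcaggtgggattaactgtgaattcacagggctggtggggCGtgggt
Pou5f1 upstream: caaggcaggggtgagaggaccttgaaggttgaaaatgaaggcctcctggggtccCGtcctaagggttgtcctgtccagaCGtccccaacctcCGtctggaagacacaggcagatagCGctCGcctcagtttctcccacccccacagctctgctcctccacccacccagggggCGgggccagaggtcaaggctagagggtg
Gata1-201 upstream: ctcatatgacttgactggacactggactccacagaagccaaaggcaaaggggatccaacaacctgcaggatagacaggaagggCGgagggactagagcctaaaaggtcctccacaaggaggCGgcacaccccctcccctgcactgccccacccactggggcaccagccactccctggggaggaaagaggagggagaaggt
Foxa2 upstream: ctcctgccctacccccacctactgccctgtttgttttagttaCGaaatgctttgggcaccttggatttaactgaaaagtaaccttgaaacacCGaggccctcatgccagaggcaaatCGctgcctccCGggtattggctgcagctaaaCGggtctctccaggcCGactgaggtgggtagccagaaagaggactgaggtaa

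Of the 16 peaks, 7 spanned a TSS of the gene they were counted at, 9 did not, and 13 began downstream of the 5′ end. The 7 were those of Gata6 in all 4 lists, of Gata4 in LGE and CGE and of Sox17 in LGE. By this stricter reading 3 of the 10 genes were marked in LGE, 2 in CGE, 1 in MGE and 1 in CTX, whereas 59.0%, 59.8%, 57.2% and 57.0% of all protein-coding genes had a peak over a TSS in these lists. Among all marked genes, 92.4% (CGE), 91.9% (LGE), 89.2% (CTX) and 88.1% (MGE) had a peak over a TSS.

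The peaks at the regulators ranged from narrow to moderately wide for their lists and were of low significance. Their widths ran from 182 to 1605 bp with a median of 918 bp, and 6 of the 16 were wider than at least 50% of the promoter peaks of the same list. Fold enrichment ran from 2.47 to 4.62 with a median of 3.30, below the list medians of 6.26 for CGE, 5.97 for LGE, 5.84 for CTX and 5.58 for MGE. The −log10 q ran from 1.05 to 7.41 with a median of 2.34. For 5 peaks it was below 2, and for 1 peak, that of Gata6 in CGE, it was at least 5. Ranked within the promoter peaks of the same list, the 16 peaks had a median of 36.8% narrower peaks (5.73% to 71.5%), 8.27% of peaks with a lower fold (2.38% to 33.5%) and 5.38% with a lower −log10 q (0.126% to 22.7%). None of the 16 had a fold or a −log10 q above that of 50% of promoter peaks. The plot of width against significance shows this separation, with 6 peaks above the middle of the width axis (Gata6 in MGE, LGE and CGE, Gata4 in LGE and CGE, and Sox17 in CGE) and all 16 on the left of the other axis. Peaks of a list share its read depth, and these ranks are given as a description.

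**Figure D3:**
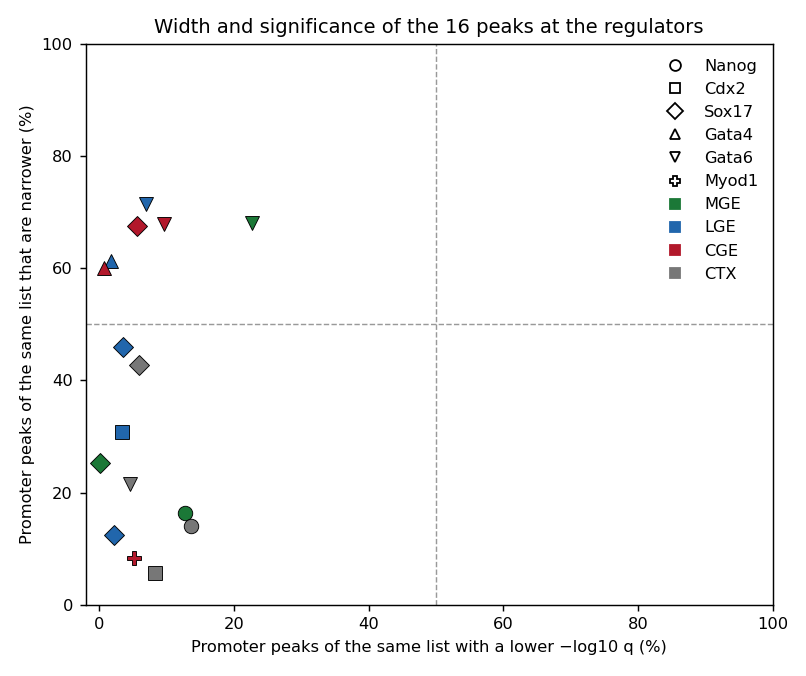
Rank of each of the 16 peaks among promoter peaks (within 5 kb of a protein-coding TSS) of the same list, as the percent of those peaks with a lower −log10 q (horizontal axis) and the percent that are narrower (vertical axis). Marker shape gives the gene, colour the list, and dashed lines mark 50%. All points lie at or below 22.7% on the horizontal axis, and 6 lie above 50% on the vertical axis.

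CpG content was read from the genome as the ratio of observed to expected CpGs in the 300 bases from 250 upstream of the gene 5′ end to 50 downstream. Over all protein-coding genes the median ratio was 0.525. All genes were divided into terciles by this ratio. Of the lowest tercile, 23.3% to 26.0% were marked, depending on the list, compared with 72.9% to 74.5% of the middle tercile and 94.5% to 95.5% of the highest. Sox17 (0.854) was in the highest tercile and marked in all 4 lists. The middle tercile held 8 members, with ratios of 0.720 for Cdx2, 0.556 for Gata6, 0.548 for Foxa2, 0.427 for Myod1, 0.421 for Gata4, 0.405 for Gata1, 0.384 for Pou5f1 and 0.329 for Dppa4. Of these 8 genes 3 were marked in LGE, 3 in CGE, 2 in CTX and 1 in MGE. The unmarked genes other than Foxa2 had lower ratios than the marked ones of this tercile in this window, but not in a window of 500 bases on either side of the 5′ end, where the ratio was 0.175 at marked Gata4 and 0.306, 0.332 and 0.389 at unmarked Gata1, Pou5f1 and Dppa4. Nanog (0.192) was in the lowest tercile.

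Ratios at the 5′ end did not describe every start. At Gata4 the ratio was 0.421 at the unmarked 5′ end and 0.847 at the start of Gata4-201, which lay under the LGE and CGE peaks. At Foxa2 the start of Foxa2-202, 1021 bp downstream of the 5′ end, had a ratio of 0.767 and no peak in any list, so a CpG-rich start was also found without the mark. At Gata6 the start of Gata6-204 had the highest ratio among its starts, 0.920, and lay 1258 to 2189 bp from the nearest peak in the 4 lists. The 14 peaks at genes other than Nanog had ratios of 0.599 to 0.879, beside list medians of 0.675 to 0.714 over promoter peaks. The Nanog peaks had ratios of 0.355 in MGE and 0.379 in CTX, below the 25th percentiles of promoter peaks of 0.552 and 0.577 in these lists.

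**Figure D4:**
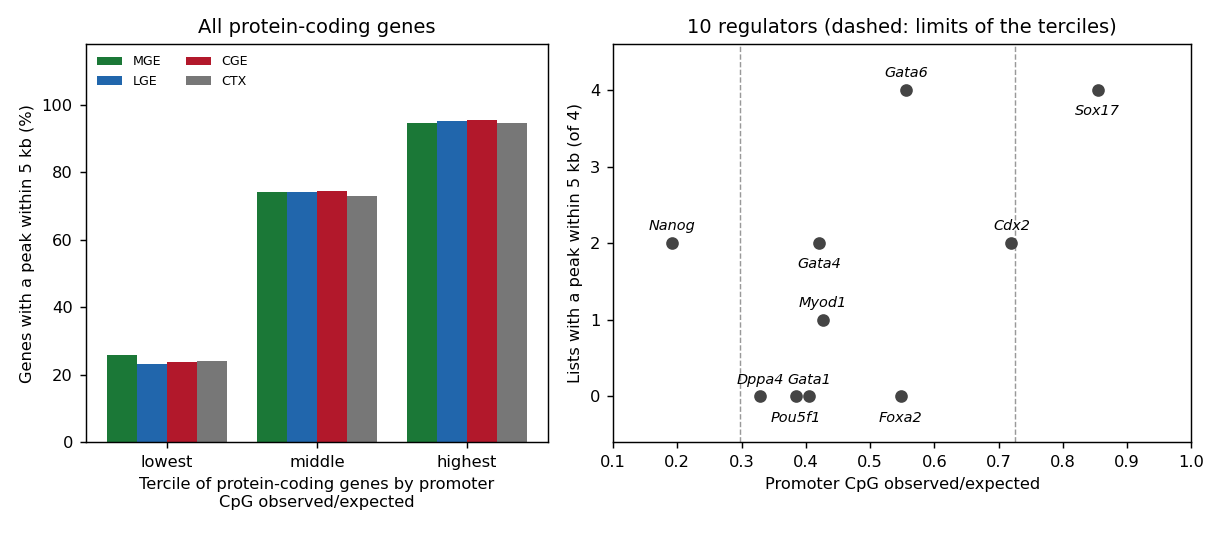
Left, percent of protein-coding genes with a peak within 5 kb (vertical axis) in each tercile of promoter CpG observed/expected, with 1 bar per list. Right, number of lists with a peak (vertical axis) against promoter CpG observed/expected (horizontal axis) for the 10 regulators, dashed lines marking the limits of the terciles at 0.298 and 0.725. Sox17 is the only regulator in the highest tercile, and Foxa2 at 0.548 is unmarked while Gata6 at 0.556 is marked in 4 lists.

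Other regulators of the same lineages were counted in lists written by hand without the 10 genes. Whether a counted peak lay nearer to a start of another gene was not examined for these lists or for the cell type markers below. Of 15 pluripotency and trophoblast genes 9 were marked in CGE, 8 in LGE, 7 in CTX and 6 in MGE, and the median gene of the list had 830, 691, 0 and 0 covered bases. Unmarked in every list were Zfp42 (Rex1), Dppa2, Dppa3 (Stella), Dppa5a, Tdgf1 (Cripto) and Elf5, a trophoblast factor. All 3 other Dppa genes of the list were thus without a peak like Dppa4. However, the 5′ ends of Dppa2 and Dppa4 are at positions 48303908 and 48283733 of chromosome 16. They lie in the same stretch without a peak and are not separate observations. Summed over the 4 lists, the basis for naming the most covered gene of each list of genes, the most covered was Klf4, a zinc-finger factor also used in many somatic tissues, with 1993, 3297, 3570 and 2337 bases in MGE, LGE, CGE and CTX, although it did not lead the list in CTX. Of 13 endoderm genes 9 were marked in LGE, 8 in CGE, 6 in MGE and 6 in CTX, with medians of 999, 909, 0 and 0 covered bases. Hnf4a and Cdx4 were among those in none, and Onecut1, a factor of liver and pancreas, was the most covered by this sum with 1149 (MGE), 1736 (LGE), 2614 (CGE) and 945 (CTX) bases, again other than in CTX.

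Of 11 blood regulators 9 were marked in MGE and 10 in each other list, with medians of 1469 (CGE), 1237 (LGE), 803 (CTX) and 635 (MGE) covered bases. These shares are above the 63.8% to 65.0% of all protein-coding genes, a difference that was not tested. The gene in no list was Gfi1b, a repressor of erythroid and megakaryocyte cells. The most covered by the sum was Ikzf1, a lymphoid zinc-finger factor that led the list in MGE but not in LGE, CGE or CTX taken alone, with 1625 (MGE), 1920 (LGE), 1863 (CGE) and 1368 (CTX) bases. Gata1 thus differed from most genes of this list. Of 13 muscle and mesoderm genes 7 were marked in LGE, 7 in CGE, 4 in MGE and 3 in CTX, with medians of 276, 559, 0 and 0 covered bases. Myf5 and Myog, relatives of Myod1 in the same myogenic family, were in no list, nor were T (brachyury) and Hand2. Myf6, another relative in that family and named after its values were seen, was marked in MGE, LGE and CGE with 126, 564 and 653 bases. Tbx6 was the most covered with 950 (MGE), 2279 (LGE), 2340 (CGE) and 1630 (CTX) bases. In each of the 10 lists of related genes and markers, as over the 10 regulators, the covered bases summed higher in LGE and in CGE than in MGE or CTX, so this order was not particular to a lineage. For example, the sums were 11158 (LGE), 9762 (CGE), 3597 (MGE) and 3579 (CTX) for endoderm and 6381, 7598, 1589 and 2477 for muscle and mesoderm in the same order. The median over all marked protein-coding genes was also higher in LGE and CGE, at 1402 and 1497 bases, than in MGE and CTX, at 1044 and 1088 bases.

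Terminal products of these lineages were the least often marked of the 5 lists in MGE, LGE and CGE, whereas in CTX the muscle and mesoderm genes were. Of 15 genes 3 were marked in LGE and 4 in each other list, and the median was 0 covered bases throughout. The 11 in no list were Alb, Afp, Fabp1, Hbb-bt, Alas2, Myh1, Ins2, Gcg, Ddx4, Zp3 and Krt5. The most covered was Acta1, skeletal muscle actin, with 1076 (MGE), 1259 (LGE), 1512 (CGE) and 485 (CTX) bases. The plot of marked shares by gene list places the 10 regulators between these terminal products and the pluripotency and trophoblast list in every region.

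**Figure D5:**
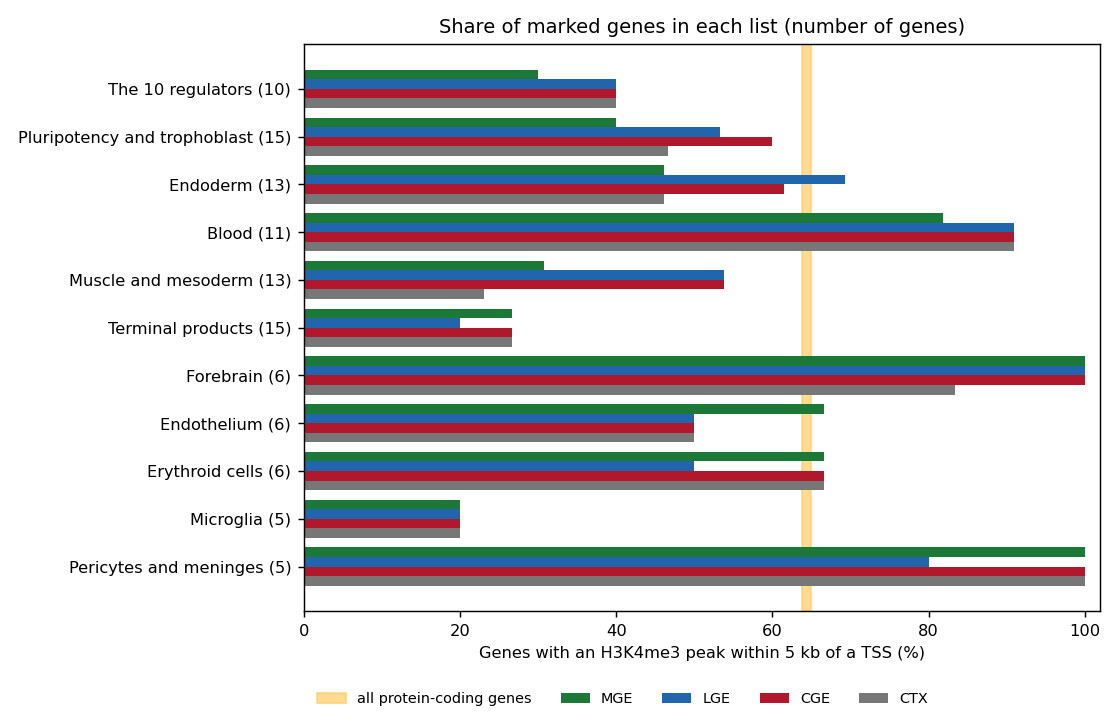
Percent of genes with an H3K4me3 peak within 5 kb of a TSS (horizontal axis) for the 10 regulators, 5 lists of related genes and 5 lists of cell type markers, with the number of genes in parentheses and 1 bar per region list. The shaded band spans the shares over all protein-coding genes, 63.8% to 65.0%, and the bars of the 10 regulators end at 30% in MGE and 40% in the other lists.

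Markers of other cell types that a dissected forebrain can hold were counted as well, and values are given in the order MGE, LGE, CGE and CTX. Endothelial genes, among which Sox17 is also known to act, were marked in 4 of 6 cases in MGE and in 3 of 6 in each other list. The gene marked in MGE alone had 124 covered bases and a −log10 q of 1.05, where the lowest value of that list was 1.00. Cdh5 and Tek were in no list, and the summed covered bases of the markers were 2528 (MGE), 2946 (LGE), 3419 (CGE) and 2325 (CTX). In the same order of lists, Kdr, a VEGF receptor, was the most covered, with 1117, 1228, 1294 and 1067 bases. Erythroid genes were marked in 4, 3, 4 and 4 of 6 cases with summed covered bases of 2296, 3355, 3572 and 2060. Alas2 and Hbb-bt were in no list, as Gata1 was, and Epor was the most covered by the sum, although behind Klf1 in MGE and CTX, with 748, 1333, 1349 and 563 bases. Of 5 microglial genes Spi1 was marked in each list, with 840, 1155, 1175 and 803 bases, and Csf1r, Aif1, Cx3cr1 and P2ry12 were in none. Pericyte and meningeal genes were marked in 5, 4, 5 and 5 of 5 cases, with summed covered bases of 2598, 3716, 5794 and 2754. Foxc1 was the most covered of them by the sum, although not in CTX, with 1127, 1448, 2835 and 511 bases. Spi1 and Klf1 also belong to the blood list, and Alas2, Hba-a1 and Hbb-bt to the terminal products. The part of non-neural cells in the peaks at Sox17, Gata4, Gata6 and the other marked regulators was not tested.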

How the data were processed

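H3K4me3 CUT&Tag was performed in 12 libraries (MGE, LGE, CGE and CTX, 2 biological replicates each, some sequenced more than once). The authors aligned reads with Bowtie2 to GRCm38/mm10, removed blacklisted reads and Picard duplicates, merged the replicates with SAMtools and called broad peaks with MACS. Its version, threshold and control are not given in the sources used here. The 4 lists hold 9 unnamed columns. The authors' fold enrichment (a ratio to the caller's background) and −log10 q were used as deposited. The lists hold no read counts. The study states reads per replicate before merging, which differ between regions and were not used here, and no counting error was computed.

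Peaks were converted to 1-based positions and intersected with every TSS of GENCODE M21 (55450 genes, 21951 protein-coding) in Python 3.11.15 with numpy 2.4.6, and drawn with matplotlib 3.10.9. The interval arithmetic was tested on simulated data. Promoter peaks were those within 5 kb of a protein-coding TSS, and covered bases were bases of the merged windows under peaks. CpG ratios and sequences came from the RefSeq GRCm38.p6 genome. The RefSeq promoter table held 5 of the 10 members, and its 9 windows were identical to the genome. No test was made, since each region had 1 list.

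All 10 members were named. Of the gene and marker lists, counts, genes in no list and the most covered gene were given, and neighbours whose TSS was nearer to a counted peak. A few items of these lists are not reported here by name, although the counts include them. Members and lists were chosen with earlier results of these data known. Alternatives changed the window, the start sites, the overlap, the −log10 q, the list length and the narrowest width.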

Additional observations from a re-analysis of the deposited data

How the results depend on the processing

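The count of marked regulators depended on the window and on the lowest significance admitted. With a window of 1 kb, 1 gene was marked in MGE and 1 in all 4 lists. With 10 kb, 5 were marked in MGE, 7 in CGE, 4 in all 4 lists and 2 in none. With the gene 5′ end alone, 1 was in all 4 lists. When a peak had to span a TSS, 1 was marked in MGE, 2 in CGE, 1 in CTX, 1 in all 4 lists and 7 in none. When −log10 q had to reach 2, 2 were marked in CTX and 0 in all 4 lists, since the Sox17 peaks of MGE and CTX and the Gata6 peak of CTX fell below it. When each list was shortened to its 17284 peaks of highest −log10 q, 1 was marked in MGE, 1 in CTX and 0 in all 4 lists. Counting a peak only for the gene of the nearest TSS removed Nanog in MGE and CTX, and requiring the common narrowest width of 243 bp removed Cdx2 in CTX. The other counts stayed within 1.5 times the values in the report under the 11 settings. Of 440 values of covered bases, 396 were unchanged, 7 were higher and 37 lower. Pou5f1, Dppa4, Foxa2 and Gata1 were unmarked in every list under every setting other than the 10 kb window, where Pou5f1 was marked in all 4 lists and Foxa2 in CGE. No paired analysis was possible because the lists were made from merged replicates, and for the same reason no replicate could be left out. Read depth limits weak and narrow peaks, and the read totals that the study states per replicate were not used, since the number of reads left after merging and removal of duplicates is not given.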
